A study of Mus musculus with 16 samples.

Results

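The CDK inhibitors are small proteins that hold back the cyclin-dependent kinases (CDKs), the enzymes that drive a cell through its division cycle. Here, the RNA of 6 of them was followed in p53-/-; Myc hepatoblasts, a line of mouse liver progenitors without functional p53, the tumor suppressor, and with the oncogene Myc in excess. The 6 genes were the 4 Ink4 genes, Cdkn2a, Cdkn2b, Cdkn2c and Cdkn2d, and 2 Cip/Kip genes, Cdkn1a and Cdkn1b. The imprinted gene Cdkn1c was set aside. They were chosen by gene family, with earlier results of these data known, out of 40840 genes in the count table. All 6 were among the 20444 genes tested.

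Cells of this line had received sorafenib (8.5 µM), a kinase inhibitor used against hepatocellular carcinoma (HCC), or its vehicle DMSO. The 4 groups were DMSO for 48 hours, sorafenib for 48 hours, DMSO for 7 days and sorafenib for 7 days, with 4 libraries each and 16 in all. All groups, controls included, carried the same p53 loss and Myc overexpression, so none of them shows the genes in cells with p53. The labels give the cell type as HCC and name 1 cell line, so the replicates are not separate animals or separate lines. They do not say whether the replicates were separate cultures, and p-values measure only the spread between these samples, which may be technical.

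Ink4 proteins bind CDK4 and CDK6 and keep them from pairing with D-type cyclins, whereas p21 (Cdkn1a) and p27 (Cdkn1b) bind whole cyclin-CDK complexes, above all those of CDK2. With the kinases held back, the retinoblastoma protein and its relatives stay bound to E2F factors and the genes of DNA replication stay low. Cdkn1a is the textbook target of p53, Cdkn2b is known for its response to TGF-beta, and Cdkn2a makes p16Ink4a and, from another first exon and another reading frame, p19Arf, which protects p53 by binding Mdm2. In liver, these genes are best known for their part in senescence and for their loss in tumors.

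The libraries held 16586254 to 30828427 counts in total, with a median of 26360677. Counts were scaled to an average library by the total and by TMM, a factor that corrects for a few genes taking many reads, and are then called normalized counts. The knocked-out gene could not be checked from these values. Trp53 had 1268 to 4799 counts in every library, and a count over the whole gene does not show which exons are missing. Trp53 RNA fell by 50.1% with sorafenib at 48 hours, to 1843 ± 80.3 from 3690 ± 322 normalized counts (SE 0.0587 on the log2 scale, FDR = 9.86e-12). It was higher at 7 days, at 2570 ± 144 against 2128 ± 131 (log2 0.27 ± 0.0579, FDR = 4.37e-04), and the responses differed by 1.27 ± 0.0824 (FDR = 2.03e-10). Myc had 4226 to 17797 counts and was lower with sorafenib at both times, at 8974 ± 1742 against 13202 ± 532 normalized counts at 48 hours (log2 -0.56 ± 0.0907, FDR = 2.57e-05) and 10426 ± 285 against 14822 ± 453 at 7 days (-0.51 ± 0.0904, FDR = 6.80e-05). Myc lies in the stretch where 1 library has lowered counts.

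Of 10 hepatoblast and liver epithelial markers, 6 had at least 10 counts in every library, among them Dlk1, Krt19 and Foxa2, but Hnf4a was at 0 and Alb at 0 or 1. The defining leukocyte markers Adgre1 and Cd3e were at 0 and Ptprc at 4 counts or fewer, and the endothelial marker Cdh5 was at 2 or fewer, but Cd68 of the leukocyte list had 47 to 91 counts and Kdr of the endothelial list 26 to 270. In contrast, Col1a1 and Acta2 of the stellate cell and fibroblast list reached 81817 and 77571 counts, while Lrat of that list was at 0.

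The summed level of the hepatoblast list moved with the groups, at 35003 to 36371 normalized counts with DMSO and 12889 to 14807 with sorafenib at 48 hours, and 18791 to 20604 with DMSO and 6899 to 7163 with sorafenib at 7 days. Dlk1 made up most of this sum, with means of 32234 with DMSO and 10444 with sorafenib at 48 hours and 16766 and 4020 at 7 days. The means of Krt19 (2626 to 1537, and 1457 to 1016) and Krt18 (286 to 216, and 335 to 177) were also lower with sorafenib. So were those of Krt8 (114 to 70.3, and 136 to 63.5) and Epcam (29.3 to 6.17, and 18.3 to 2.78). In contrast, the means of Foxa2 (211 to 722, and 480 to 862) and Sox9 (213 to 664, and 350 to 904) were higher with sorafenib. Afp had 14 counts or fewer. The sum of the stellate cell and fibroblast list was 46649 to 49748 with DMSO and 133229 to 154516 with sorafenib at 48 hours, and 66084 to 67896 and 114365 to 119445 at 7 days. It was carried by Col1a1 and Acta2, while Pdgfrb had lower means with sorafenib (977 against 1668 at 48 hours, 470 against 718 at 7 days), as had Des (72.6 against 89.5, and 18.8 against 42.2). The endothelial sum was 45.9 to 77.6 with DMSO and 119 to 151 with sorafenib at 48 hours, and 33.5 to 49.2 and 195 to 230 at 7 days. Kdr carried it, with means of 48.5 and 122 at 48 hours and 31.3 and 197 at 7 days. Stab2 (2.54 to 7.16, and 5.94 to 12.4) was also higher with sorafenib. Pecam1 was lower at 48 hours (4.73 to 1.66) and higher at 7 days (2.18 to 3.71). The leukocyte sum stayed between 58.1 and 84.4. The part of these shifts in the results on the CDK inhibitors was not tested. In bulk RNA, fewer cells of a type and less RNA per cell cannot be told apart.

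One library stands apart across many genes. In replicate 2 of sorafenib for 48 hours, the counts of genes beyond a place on chromosome 14 (GRCm39), including those on chromosomes 15 to 19 and X, ran at 0.605 of the level of genes ahead of it (log2 -0.73, against steps of no more than 0.04 elsewhere). Cdkn1a, on chromosome 17, lies in the lowered stretch. The other CDK inhibitor genes, on chromosomes 4, 6 and 9, lie before it. Other replicates stand apart by a few genes. Replicate 4 of DMSO for 7 days differed from the other 3 by a chi-square of 41.4 to 55.0 per gene, where 1 is counting error, but 10 genes gave 92.7 to 95.1% of it, and 2.71 to 3.02 remained without them. In DMSO for 48 hours, replicates 1 and 4 differed from 2 and 3 in the same way, by 14.4 to 32.7, or 2.05 to 4.20 without 10 genes. For replicate 2 of sorafenib for 48 hours, 24.4 to 28.4 remained without 10 genes. No call on a CDK inhibitor gene changed without replicate 4 of DMSO for 7 days, which was the lowest of its group for Cdkn1a.

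The genes sit on 4 chromosomes (GRCm39, GENCODE). Cdkn2b (chr4:89223204-89229276, minus strand) lies 10313 bases from Cdkn2a (chr4:89192708-89212890, minus strand). Cdkn2c lies on the same chromosome (chr4:109517957-109524386, minus strand). Cdkn2d is on chromosome 9 (chr9:21199700-21202727, minus strand), Cdkn1b on chromosome 6 (chr6:134897364-134902476, plus strand) and Cdkn1a on chromosome 17 (chr17:29309936-29319701, plus strand). Cdkn2a has 2 annotated transcripts with separate first exons. A count over the gene adds p16Ink4a and p19Arf together, so their shares are unknown here.

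The stretches of 250 bases just before the transcript starts are shown for 3 genes. Cdkn1a and Cdkn2b are the members whose RNA differed most between sorafenib and DMSO, and Cdkn2a, the neighbour of Cdkn2b, has 2 starts. Each is read from the GRCm39 genome on the gene's own strand, 5′ to 3′, and ends at the base before the start. Capitals mark GC boxes (GGGCGG, on either strand), or in Cdkn2b the core of a cyclic AMP response element (CRE; TGACGT, on either strand).

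Cdkn1a, chr17:29312488-29312737, plus strand: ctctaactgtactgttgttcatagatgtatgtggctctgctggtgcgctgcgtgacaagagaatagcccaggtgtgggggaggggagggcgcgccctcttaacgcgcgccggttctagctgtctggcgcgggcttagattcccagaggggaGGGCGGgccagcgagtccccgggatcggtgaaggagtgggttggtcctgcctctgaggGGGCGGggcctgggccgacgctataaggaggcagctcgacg

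Cdkn2b, chr4:89229277-89229526, minus strand: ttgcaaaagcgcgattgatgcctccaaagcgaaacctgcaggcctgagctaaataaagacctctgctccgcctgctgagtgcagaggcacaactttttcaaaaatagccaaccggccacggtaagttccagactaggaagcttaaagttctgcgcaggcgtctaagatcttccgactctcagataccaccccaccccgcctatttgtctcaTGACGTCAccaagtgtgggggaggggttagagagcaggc

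Cdkn2a at the p16Ink4a start, chr4:89200430-89200679, minus strand: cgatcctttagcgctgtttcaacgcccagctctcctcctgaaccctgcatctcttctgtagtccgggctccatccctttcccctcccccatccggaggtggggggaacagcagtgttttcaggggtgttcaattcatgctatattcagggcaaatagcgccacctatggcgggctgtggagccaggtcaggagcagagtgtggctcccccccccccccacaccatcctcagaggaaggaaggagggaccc

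Cdkn2a at the p19Arf start, chr4:89212891-89213140, minus strand: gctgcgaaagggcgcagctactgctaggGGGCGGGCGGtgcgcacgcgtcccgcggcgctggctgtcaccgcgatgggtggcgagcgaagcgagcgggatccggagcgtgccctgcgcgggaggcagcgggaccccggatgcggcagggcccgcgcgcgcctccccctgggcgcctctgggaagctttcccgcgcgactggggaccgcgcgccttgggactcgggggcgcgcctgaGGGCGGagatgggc

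The Cdkn1a stretch held 2 GC boxes, with their first bases 99 and 41 bases before the start. It lies within introns of longer Cdkn1a transcripts and over an exon of the antisense transcript Dino. The Cdkn2b stretch held no GC box, but the CRE core on both strands, overlapping, at 39 and 37 bases before the start. It lies over an exon of the antisense RNA Gm12610, as does the stretch before the p19Arf start. The CRE core was added to the search after the stretches had been read. Among 14641 stretches of the same length before tested genes, 47.4% held a GC box and 7.72% a CRE core.

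The 2 starts of Cdkn2a differed in base composition. The stretch before the p19Arf start was 77.6% G and C and held 3 GC boxes, 2 of them overlapping, and that before the p16Ink4a start, which lies in an intron of the longer transcript, was 60.0% G and C and held none. Cdkn1a stood at 64.4%, Cdkn2b at 52.8% and the median of all such stretches at 56.4%. Of the members not shown, Cdkn1b, Cdkn2c and Cdkn2d each held at least 1 GC box, and Cdkn1b (2) and Cdkn2d (1) also held CCAAT boxes (CCAAT, in 35.5% of all stretches). None of the 7 stretches held an E-box (CACGTG, 7.40% of all), an AP-1 site (TGANTCA, 4.90%), a C/EBP-ATF site (TGATGNAA, 2.16%), a FOXO site (GTAAACA, 2.32%) or a TATA box (TATAAA, 7.79%), all searched on both strands. A match is a description of the letters and not a shown binding site.

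Levels of different genes were compared per length, as normalized counts per kilobase of all annotated exons. With DMSO for 48 hours, Cdkn2a stood at 6393 ± 255 (SD, n = 4) and Cdkn1b at 448 ± 5.24 normalized counts per kilobase. They were followed by Cdkn2d at 216 ± 11.5, Cdkn2b at 147 ± 10.5, Cdkn2c at 94.8 ± 2.32 and Cdkn1a at 6.26 ± 1.27. Cdkn2a alone made up 87.5% of the sum of the 6, and between 86.8 and 87.5% in all 4 groups. Neighbours in this order did not overlap between libraries in any group.

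Cdkn2b and Cdkn2d traded places. In the 3 groups other than DMSO for 48 hours, Cdkn2b ranked next after Cdkn1b, at 356 ± 16 normalized counts per kilobase with sorafenib for 48 hours, 262 ± 16.2 with DMSO for 7 days and 321 ± 20.2 with sorafenib for 7 days. Cdkn2d then came after Cdkn2b, at 209 ± 23.4, 163 ± 3.70 and 206 ± 22.5. The middle of the order depends on the length used. Per kilobase of the canonical transcript, Cdkn2c rose to 224 in DMSO for 48 hours and overlapped with Cdkn2d (231), and in DMSO for 7 days it overlapped with Cdkn2b. With either length, Cdkn2a stayed highest, followed by Cdkn1b, and Cdkn1a stayed lowest.

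**Figure D1:**
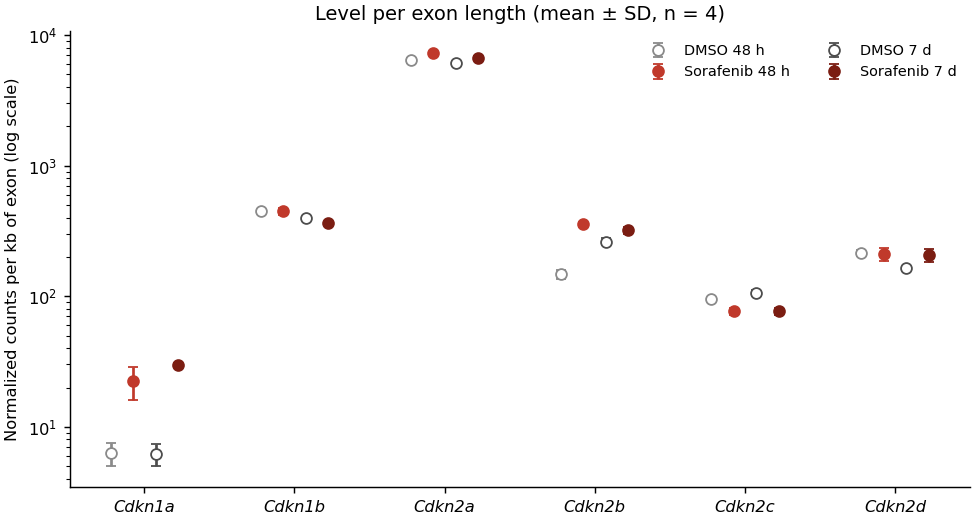
Level of each CDK inhibitor gene in each group, as normalized counts per kilobase of annotated exon on a log scale (points, mean; bars, SD; n = 4 libraries). Cdkn2a stands at 6111 to 7286 in all 4 groups, and Cdkn1a between 6.20 and 29.8.

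Sorafenib was compared with DMSO at each time point to see how the RNA of each inhibitor responded. A gene was called where its FDR (quasi-likelihood test of edgeR, Benjamini-Hochberg adjusted over all 20444 genes) was below 0.05, and fold changes are given as log2 ± standard error (SE). At 48 hours, 4 of the 6 were called, 3 higher (Cdkn1a, Cdkn2b, Cdkn2a) and 1 lower (Cdkn2c), against 54.6% of all genes tested (26.9% higher, 27.7% lower). The same 4 did not overlap between the groups, as did 48.0% of all genes. At 7 days all 6 were called, 4 higher (Cdkn1a, Cdkn2d, Cdkn2b, Cdkn2a) and 2 lower (Cdkn2c, Cdkn1b), against 56.8% of all genes (28.9% higher, 27.9% lower), and all 6 did not overlap, as did 56.8% of all genes. These shares include genes with few counts, whereas each member had at least 10 counts in every library. Among the 12158 genes with at least 10 counts in every sample, fitted alone, 9196 were called at 48 hours and 9146 at 7 days.

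Most of these responses were small beside the median over all genes tested. The median absolute log2 fold change over the 6 was 0.24 at 48 hours and 0.31 at 7 days, against 0.50 at both times over all genes tested. Genes with few counts are part of the latter, and an absolute median over genes of like depth was not taken. The signed medians were 0.09 and 0.22, against -0.05 and 0.02. Only Cdkn1a at both times and Cdkn2b at 48 hours passed 1 on the log2 scale.

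**Figure D2:**
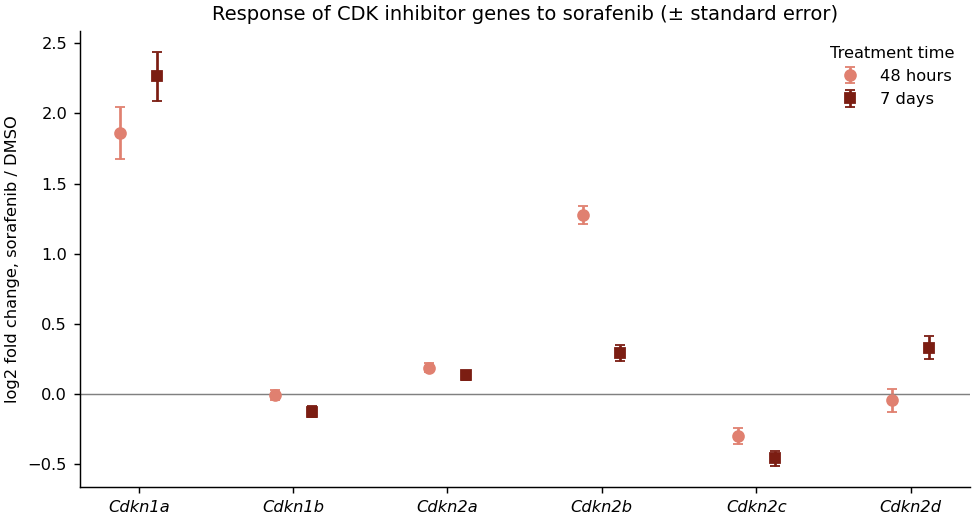
Log2 fold change of each CDK inhibitor gene, sorafenib against DMSO, after 48 hours (circles) and 7 days (squares), with standard errors from the fit over 16 libraries. Cdkn1a stands at 1.86 and 2.26, Cdkn2b drops from 1.28 to 0.30, and the others lie between -0.46 and 0.33.

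The Cip/Kip gene Cdkn1a encodes p21, which binds cyclin-CDK complexes and the replication clamp PCNA. With DMSO for 48 hours it had 31.3, 48.6, 37.8 and 33.7 normalized counts in replicates 1 to 4, and with sorafenib for 48 hours 132, 83.2, 163 and 162. At 7 days it had 42.2, 42.0, 38.8 and 26.9 with DMSO and 171, 184, 188 and 177 with sorafenib. Every sorafenib library was above every DMSO library at both times, and the lowest sorafenib value was that of the library with lowered counts.

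Cdkn1a rose by 1.86 ± 0.186 at 48 hours (3.63-fold, FDR = 3.60e-08) and by 2.26 ± 0.174 at 7 days (4.80-fold, FDR = 6.69e-10). As large an absolute log2 change was seen in 12.4% and 9.64% of all genes tested. The 2 responses differed by 0.41 ± 0.269, which was not called (FDR = 0.267), and by 0.25 without the library with lowered counts (FDR = 0.349) or 0.28 with an offset for its lowered stretch (FDR = 0.297). Without that library, the 48 hour rise was 2.01 (FDR = 1.85e-17), and the mean with sorafenib for 48 hours moved from 135 ± 37.5 (n = 4) to 152 ± 17.7 (n = 3). The rise took place from a low level. Raw counts in the DMSO libraries were 29 to 56, where 3 counts, the floor used for stray reads, equal 2.44 to 4.54 normalized counts. Of its annotated exons, 8.34% lie under Dino and 4.12% under another antisense transcript, neither of which is listed in the count table, and the strand setting of the counting is not given in the sources used here.

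The other Cip/Kip gene, Cdkn1b, encodes p27, the inhibitor best known from resting cells, whose protein is mainly set by its breakdown. Its normalized counts were 2065, 2036, 2008 and 2046 with DMSO and 1873, 2159, 2012 and 2078 with sorafenib at 48 hours. They were 1819, 1792, 1808 and 1754 with DMSO and 1646, 1636, 1638 and 1661 with sorafenib at 7 days. The groups overlapped at 48 hours, whereas at 7 days all 4 sorafenib libraries lay below the DMSO libraries.

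At 48 hours the change of Cdkn1b was -0.01 ± 0.0371 (FDR = 0.906). At 7 days Cdkn1b fell by 8.27%, a log2 change of -0.12 ± 0.0372 (FDR = 0.00737). With scaling by total counts alone the 7 day change was -0.10 and missed the threshold (FDR = 0.0547). The difference between the 2 responses was not called (-0.12 ± 0.0525, FDR = 0.0879). It was called without replicate 1 of sorafenib for 48 hours (-0.12, FDR = 0.0351), the lowest library of its group. Without the filter on low counts it was also called (-0.13, FDR = 0.0476). In normalized counts, Cdkn1b stood at 55.5 ± 10.5 times Cdkn1a with DMSO for 48 hours, 16.3 ± 6.47 times with sorafenib for 48 hours, 49.4 ± 10.7 times with DMSO for 7 days and 9.16 ± 0.419 times with sorafenib for 7 days, ratios that are not per length. In replicate 2 of sorafenib for 48 hours, the lowered stretch holds Cdkn1a but not Cdkn1b. Its ratio was 26.0, against 12.4 to 14.2 in the other libraries of that group.

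**Figure D3:**
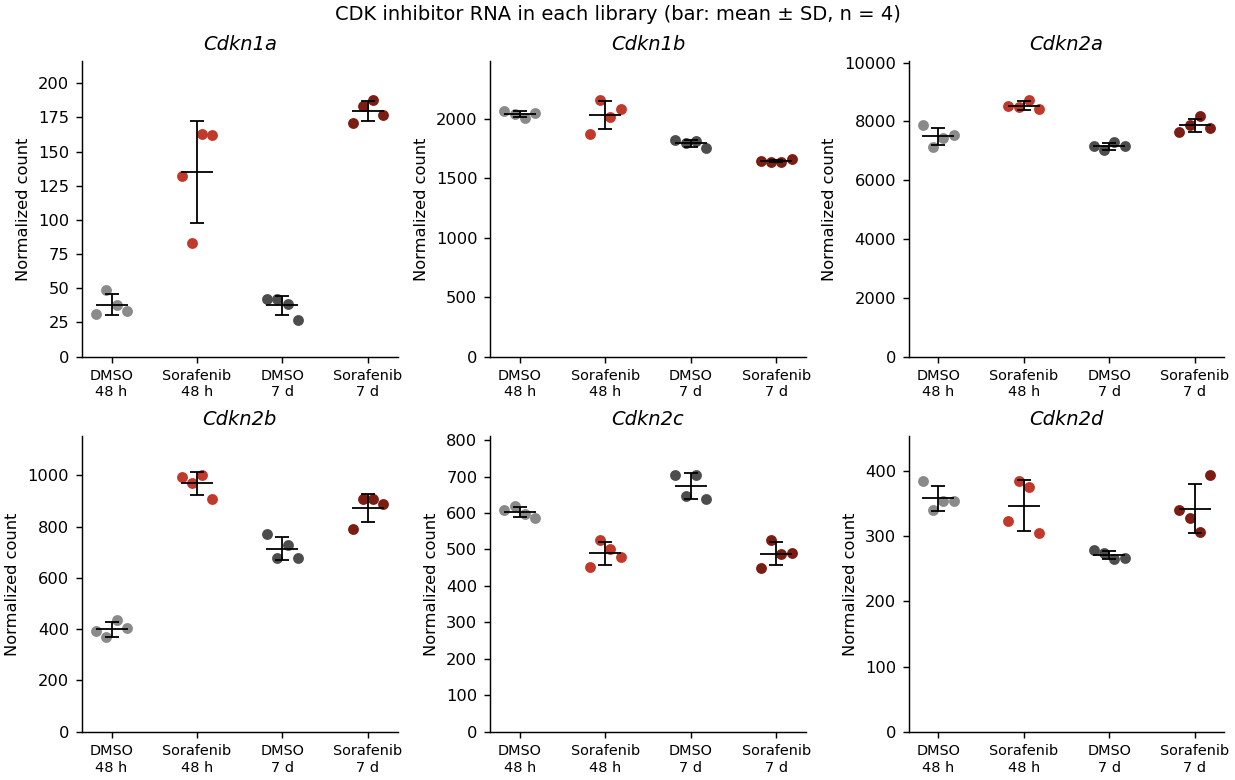
Normalized counts of the 6 CDK inhibitor genes in each of the 16 libraries (points; bars, mean ± SD, n = 4), with each axis starting at 0. The sorafenib libraries lie above the DMSO libraries for Cdkn1a, Cdkn2a and Cdkn2b and below them for Cdkn2c at both times, while Cdkn1b and Cdkn2d separate at 7 days only.

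Among the Ink4 genes, Cdkn2b, which encodes p15, showed the response that depended most on time. With DMSO for 48 hours it had 391, 369, 437 and 403 normalized counts, and with sorafenib for 48 hours 995, 969, 1002 and 906. At 7 days it had 770, 679, 728 and 678 with DMSO and 792, 906, 906 and 889 with sorafenib. The groups did not overlap at either time, but at 7 days the lowest sorafenib library (792) came close to the highest DMSO library (770).

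Cdkn2b rose by 1.28 ± 0.0619 at 48 hours (2.42-fold, FDR = 4.82e-13) and by 0.30 ± 0.0580 at 7 days (1.23-fold, FDR = 1.97e-04). The 7 day response was smaller by 0.98 ± 0.0848 on the log2 scale (difference -0.98, FDR = 1.51e-08). This was 1 of 2 members called for the difference between the responses, against 36.8% of all genes tested (15.5% higher, 21.3% lower). Of those calls over all genes, 42.1% were higher at 7 days, or 55.6% with scaling by total counts alone. Among the 12158 genes with at least 10 counts in every sample, 6827 were called for this difference. The mean with DMSO went from 400 ± 28.5 to 714 ± 44.0 normalized counts between the times, and that with sorafenib from 968 ± 43.6 to 873 ± 54.9. The DMSO groups lay far apart and the sorafenib groups close together. No other annotated gene shares exon sequence with Cdkn2b, and Gm12610, an antisense RNA across the gene, had 34 to 104 counts.

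Cdkn2a was the most abundant member, with 7864, 7141, 7427 and 7539 normalized counts in DMSO and 8511, 8480, 8740 and 8424 in sorafenib at 48 hours. At 7 days it had 7177, 7011, 7304 and 7158 with DMSO and 7650, 7870, 8172 and 7780 with sorafenib. All sorafenib libraries were above all DMSO libraries of the same time. The difference was 0.19 ± 0.0315 at 48 hours (1.14-fold, FDR = 3.34e-05) and 0.14 ± 0.0314 at 7 days (1.10-fold, FDR = 9.81e-04). Changes at least as large were seen in 77.7% and 83.4% of all genes. The responses at the 2 times differed by -0.05 ± 0.0445, which was not called (FDR = 0.393).

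Since Cdkn2a and Cdkn2b are neighbours, their ratio was taken within each library. Cdkn2a had 18.8 ± 1.33 times the normalized counts of Cdkn2b with DMSO for 48 hours, 8.83 ± 0.321 times with sorafenib for 48 hours, 10.1 ± 0.535 times with DMSO for 7 days and 9.03 ± 0.446 times with sorafenib for 7 days. The libraries of DMSO for 48 hours (17 to 20.1) lay apart from the other 12 (8.56 to 10.6).

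Genes within 500 kb on either side of the pair were then listed, a choice made after values had been seen. Next to Cdkn2a, Mtap, an enzyme of methionine salvage that is often deleted together with CDKN2A in tumors, was the only other protein-coding gene there with more than 4 counts in any library. Its means were 4411 ± 36.7 normalized counts with DMSO and 6050 ± 138 with sorafenib at 48 hours, and 6458 ± 47.3 and 6399 ± 32.9 at 7 days. Mtap was 0.46 ± 0.0256 higher with sorafenib at 48 hours (FDR = 5.00e-12) and differed by -0.01 ± 0.0253 at 7 days (FDR = 0.687). In Mtap as in Cdkn2b, DMSO for 48 hours was the lowest of the 4 groups. Of the noncoding RNAs beyond Mtap, Gm49890 (43 to 294 counts) and Gm12602 (1 to 86 counts) were higher with sorafenib at both times. The differences were 1.12 and 2.26 at 48 hours and 1.78 and 3.23 at 7 days on the log2 scale, all 4 of them called. Gm12602 was near the floor with DMSO, at means of 6.11 and 7.01 normalized counts at 48 hours and 7 days. Wincr1 (0 to 28 counts) was called higher at 7 days (1.66, FDR = 0.00208) but not called at 48 hours (1.44, FDR = 0.210).

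**Figure D4:**
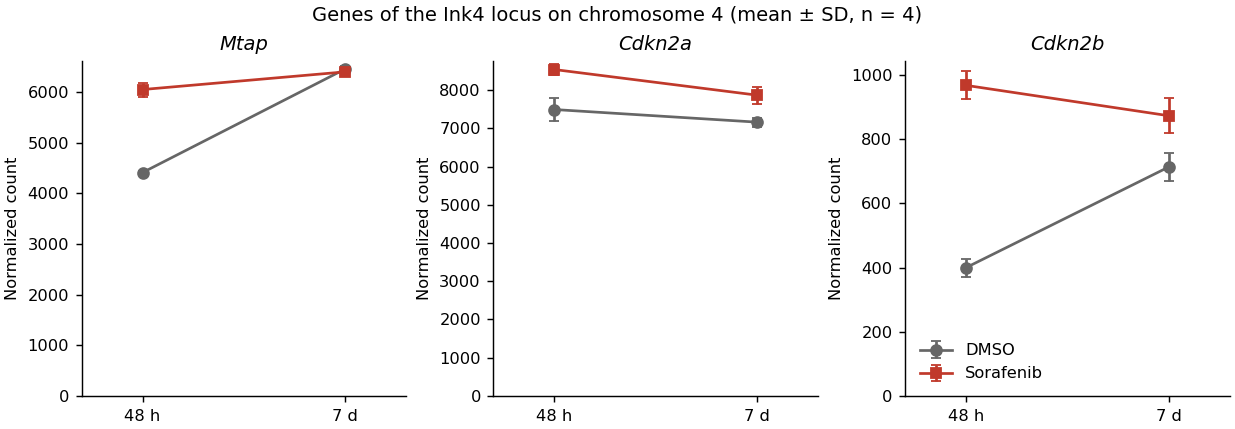
Normalized counts of Mtap, Cdkn2a and Cdkn2b, neighbours on chromosome 4, with DMSO (circles) and sorafenib (squares) at each time (mean ± SD, n = 4; lines join groups of different samples). For Mtap and Cdkn2b, DMSO for 48 hours is the lowest group (4411 and 400), and for Cdkn2a the groups span 7162 to 8539.

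Cdkn2c encodes p18, an Ink4 protein known from cells that leave the cycle to differentiate. It had 608, 620, 597 and 586 normalized counts with DMSO and 452, 525, 503 and 479 with sorafenib at 48 hours. At 7 days it had 705, 646, 704 and 639 with DMSO and 450, 527, 488 and 490 with sorafenib. It was the 1 member with every sorafenib library below every DMSO library at both times. Cdkn2c fell by 18.8% at 48 hours (log2 -0.30 ± 0.0575, FDR = 1.57e-04) and fell by 27.2% at 7 days (log2 -0.46 ± 0.0555, FDR = 5.34e-07). The 2 responses differed by -0.16 ± 0.0800, which was not called (FDR = 0.137).

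Cdkn2d encodes p19Ink4d, which is not the p19Arf of the Cdkn2a locus. It had 385, 340, 354 and 353 normalized counts with DMSO and 323, 384, 376 and 306 with sorafenib at 48 hours. At 7 days it had 279, 274, 266 and 267 with DMSO and 340, 328, 307 and 394 with sorafenib. The 48 hour groups overlapped, and at 7 days all sorafenib libraries were above all DMSO libraries. The change was -0.04 ± 0.0809 at 48 hours (FDR = 0.673) and 0.33 ± 0.0809 at 7 days (1.26-fold, FDR = 0.00153). The difference between the responses, 0.38 ± 0.114, was called (FDR = 0.0132). The DMSO mean went from 358 ± 19.1 at 48 hours to 272 ± 6.15 at 7 days, while the sorafenib means were 347 ± 38.8 and 342 ± 37.3.

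The 2 time points were also compared within each treatment. Time and any difference between the 2 collections cannot be told apart, and these comparisons share their libraries with those above. With DMSO, 4 of the 6 were called between 48 hours and 7 days, against 49.4% of all genes (23.9% higher, 25.5% lower), and the same 4 did not overlap, as did 50.8% of all genes. Among the 12158 genes with at least 10 counts in every sample, 8635 were called. Cdkn2b was 0.84 ± 0.0619 higher at 7 days (FDR = 7.41e-10) and Cdkn2c 0.16 ± 0.0544 higher (FDR = 0.0203). Cdkn2d was lower (-0.40 ± 0.0804, FDR = 3.14e-04) and so was Cdkn1b (-0.19 ± 0.0369, FDR = 2.75e-04). The call on Cdkn2c was lost without replicate 3 or 4 of DMSO for 48 hours or replicate 1 or 3 of DMSO for 7 days (FDR = 0.0535 to 0.0698), and with scaling by total counts alone (FDR = 0.175).

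Cdkn1a and Cdkn2a were not called in DMSO over time, at -0.02 ± 0.225 (FDR = 0.957) and -0.07 ± 0.0315 (FDR = 0.0971). The sign of the Cdkn1a value turned without replicate 2 of DMSO for 48 hours (0.13) or replicate 4 of DMSO for 7 days (0.11). Cdkn2a passed the threshold without replicate 2 of DMSO for 48 hours (-0.09, FDR = 0.0309) or replicate 2 of sorafenib for 48 hours (-0.06, FDR = 0.0312), and in 3 other settings.

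With sorafenib, 3 of the 6 were called between the times, against 39.7% of all genes (17.5% higher, 22.3% lower), and the same 3 did not overlap, as did 35.8%. Among the 12158 genes with at least 10 counts in every sample, 7168 were called. Cdkn1b was lower at 7 days (-0.30 ± 0.0374, FDR = 1.65e-06), as was Cdkn2a (-0.12 ± 0.0315, FDR = 0.00511), a call lost without replicate 3 of sorafenib for 48 hours (-0.09, FDR = 0.0581), with total counts only (-0.08, FDR = 0.0901), with at least 10 counts in every sample (-0.07, FDR = 0.0701) and with only the 8 libraries compared (-0.08, FDR = 0.0605). Cdkn1a was 0.38 ± 0.147 higher at 7 days (FDR = 0.0440). That call did not hold without the library with lowered counts (0.23, FDR = 0.0922), with an offset for its lowered stretch (0.26, FDR = 0.0509), or without any of 7 other libraries in turn. With the replicate number as a block it was 0.39 (FDR = 0.0603). Cdkn2b (-0.15 ± 0.0579, FDR = 0.0518), Cdkn2c (0.00086 ± 0.0585, FDR = 0.997) and Cdkn2d (-0.02 ± 0.0813, FDR = 0.860) were not called, but Cdkn2b passed without replicate 2 of sorafenib for 48 hours (FDR = 0.0252), replicate 2 of DMSO for 48 hours (FDR = 0.0475) or replicate 1 of DMSO for 7 days (FDR = 0.0458).

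Lists of genes around the CDK inhibitors were counted in the same fit. The shares called over all genes, 26.9% higher and 27.7% lower at 48 hours and 28.9% and 27.9% at 7 days, are the background for these counts. Among the 12158 genes with at least 10 counts in every sample, 4445 were higher and 4751 lower at 48 hours. At 7 days 4686 of these were higher and 4460 lower. Of the 11 CDKs and cyclins of the start of the cycle, 4 rose and 4 fell at 48 hours, and 3 rose and 5 fell at 7 days. The 2 largest changes at both times were those of Ccnd1 and Ccnd2, D-type cyclins and partners of the kinases that Ink4 proteins bind. Ccnd1 went from 3730 ± 103 to 9919 ± 275 normalized counts at 48 hours (log2 1.41 ± 0.0315, FDR = 2.63e-18) and from 3166 ± 21.7 to 14735 ± 480 at 7 days (2.22 ± 0.0322, FDR = 4.40e-21). Ccnd2 rose by 1.47 ± 0.0338 (FDR = 4.24e-18) and 1.28 ± 0.0336 (FDR = 2.59e-17). None of these libraries overlapped between sorafenib and DMSO.

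The 11 pocket proteins and E2F factors, the retinoblastoma family and the transcription factors it holds, split 3 higher and 4 lower at 48 hours and 4 higher and 6 lower at 7 days. The 2 largest changes at 48 hours were those of E2f2 (-0.90 ± 0.0702, FDR = 8.07e-10) and E2f8 (-0.51 ± 0.0421, FDR = 1.87e-09). At 7 days they were those of E2f8 (-1.11 ± 0.0409, FDR = 5.91e-15) and E2f5 (-0.81 ± 0.0513, FDR = 3.41e-11). E2f2 belongs to the activating E2F factors, E2f5 and E2f8 to those known as repressors.

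Of 15 proliferation genes, 10 fell and 3 rose at 48 hours and 12 fell and 2 rose at 7 days, with median log2 changes of -0.31 and -0.27 against -0.05 and 0.02 over all genes. The proliferation marker Mki67 fell from 13826 ± 396 to 9066 ± 400 normalized counts at 48 hours (-0.61 ± 0.0335, FDR = 3.66e-12) and from 14606 ± 307 to 8392 ± 217 at 7 days (-0.80 ± 0.0335, FDR = 4.45e-14). Mcm7, a subunit of the replicative helicase, changed by -0.57 ± 0.0294 at 48 hours (FDR = 1.16e-12). The mitotic kinase gene Plk1 changed by -0.69 ± 0.0304 at 7 days (FDR = 1.03e-13). All 4 comparisons named here had no overlap between sorafenib and DMSO libraries.

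Among 10 genes of the ubiquitin ligases that break down p27 and p21, 6 fell and 2 rose at 48 hours and 6 fell and 3 rose at 7 days. Skp2, which recognizes p27, changed by -0.65 ± 0.105 (FDR = 1.98e-05) and -0.69 ± 0.103 (FDR = 8.86e-06), and its adaptor gene Skp1 by -0.58 ± 0.0291 (FDR = 7.66e-13) and -0.59 ± 0.0290 (FDR = 5.52e-13). Skp2 lies in the lowered stretch of replicate 2 of sorafenib for 48 hours. With an offset for that stretch, 4 genes of the list rose at 48 hours.

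The Polycomb group holds the Ink4a-Arf locus silent in young cells. Of its 16 genes, taken with the H3K27 demethylases, 7 fell and 1 rose at 48 hours and 11 fell and 3 rose at 7 days. The medians were -0.07 and -0.19. Cbx2, a Polycomb subunit that binds methylated histone H3, fell from 2738 ± 69.1 to 1618 ± 96.5 normalized counts at 48 hours (-0.76 ± 0.0465, FDR = 1.96e-11) and from 1872 ± 111 to 1205 ± 40.4 at 7 days (-0.64 ± 0.0470, FDR = 3.63e-10).

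Last, 18 transcription factors known to act on these genes split 6 higher and 7 lower at 48 hours, and 7 higher and 8 lower at 7 days. Klf4, a factor known to act on Cdkn1a, had the largest rise in the list. It went from 66.6 ± 7.83 to 1447 ± 98.7 normalized counts at 48 hours (4.43 ± 0.0843, FDR = 3.20e-19) and from 229 ± 27.3 to 3078 ± 67.6 at 7 days (3.74 ± 0.0687, FDR = 1.31e-19). Klf6, of the same family, rose by 2.10 ± 0.0552 at 48 hours (FDR = 3.18e-17). Foxo4, of the forkhead factors known to act on Cdkn1b, fell from 4647 ± 149 to 592 ± 23.0 at 7 days (-2.97 ± 0.0813, FDR = 5.27e-17).

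**Figure D5:**
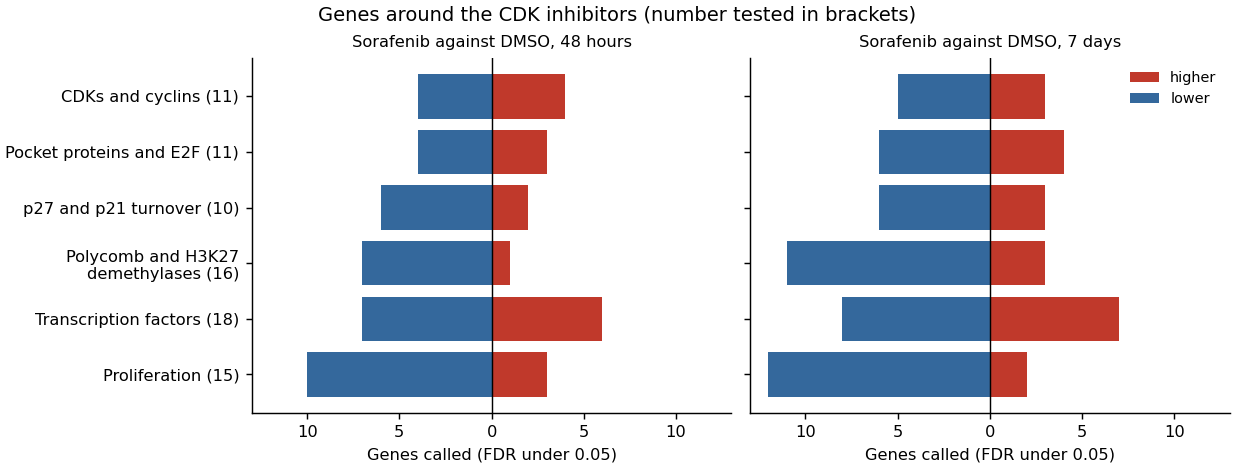
Number of genes called higher (right) and lower (left) with sorafenib in 6 lists around the CDK inhibitors, at 48 hours and 7 days (FDR under 0.05; number tested in brackets). The proliferation list leans furthest to the lower side at both times in number, with 10 and 12 of 15.

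The genes whose pattern was most like each member were found over 15 libraries, without the one with lowered counts, by the root mean square difference of log2 normalized counts after centring each gene. Smaller values mean more alike patterns. For Cdkn1a these were Glce (0.202) and Sesn2 (0.206), for Cdkn2b Nid1 (0.105) and Samd8 (0.106), and for Cdkn2c Dek (0.0546) and Psma7 (0.0547). Cdkn1b was nearest to Slc31a1 (0.0334) and Adcy6 (0.0389), Cdkn2a to Btbd1 (0.0335) and Trmt2a (0.0438), and Cdkn2d to Bin1 (0.0973) and Ogt (0.10). The medians over all genes compared were 1.11 for Cdkn1a, 0.547 for Cdkn2b and 0.258 to 0.320 for the other members. Like Cdkn2b, Nid1 was lowest with DMSO for 48 hours, at 6960 normalized counts, against 16485 with sorafenib for 48 hours (3 libraries), 11330 with DMSO for 7 days and 14448 with sorafenib for 7 days. Only genes averaging 100 or more normalized counts could be listed as nearest, so Cdkn1a could not be. None of the other members was among the 2 nearest genes of another member.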

How the data were processed

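RNA of 16 libraries, 4 in each of 4 groups, had been prepared with the Illumina Stranded mRNA Prep kit and sequenced on a NovaSeq. The authors aligned reads to GRCm39 (mm39) with STAR 2.7.1a, and the submitters' processing notes name featureCounts 2.0.6 (Subread) and DESeq2 1.40.2. The strand setting and annotation of the counting are not given in the sources used here. The deposited values are counts of reads per gene for 40840 genes, with no normalization, filter or pooling. Library totals were 16586254 to 30828427, and low values are limited by counting error.

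Genes with fewer than 10 counts in total were removed (20396), as in the study's methods. The test on the other 20444 used edgeR 4.0.16 in R 4.3.3 (TMM, quasi-likelihood, 1 model with a coefficient per group, no block) and Benjamini-Hochberg adjustment. The SE is the log2 fold change over the square root of its F statistic. No threshold on the fold change was used. Replicates differed by more than counting error (chi-square per gene 1.49 to 55.0 over pairs of a group, against 1). The scripts were tested on simulated data. Positions, lengths and bases come from GENCODE M39 and GRCm39. The promoter stretches are the 250 bases before the start of the canonical transcript, and the start of Cdkn2a-202 for p19Arf.

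The members and lists were chosen with earlier results of these data known. Named were every member, Trp53 and Myc, in each list the 2 called genes with the largest absolute change at each time whose normalized counts averaged 100 or more, and the 2 nearest genes by pattern. One gene that this rule names is not reported here. Genes near Cdkn2b, and the markers named in the check of the cell type, were singled out after their values were seen. Alternatives were DESeq2 1.42.0, limma 3.58.1 (voom with quality weights), DESeq2 size factors or total counts in place of TMM, 2 other filters on low counts, only the 8 libraries compared, the replicate number as a block, an offset for the lowered stretch of 1 library, each library left out in turn and, for levels, other lengths. Length of the canonical transcript was added after the data were seen. The place of the lowered stretch was found, after the other replicates' mean was subtracted, as the largest step in genome order over genes averaging 100 or more counts.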

Additional observations from a re-analysis of the deposited data

Results flagged for a closer look

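The response of Cdkn2b to sorafenib differed between the times by -0.98 on the log2 scale (FDR = 1.51e-08, edgeR's interaction of treatment and time), from 1.28 at 48 hours to 0.30 at 7 days. All 4 sorafenib libraries were above all 4 DMSO libraries at both times. The response of Cdkn2d differed by 0.38 (FDR = 0.0132), from -0.04 at 48 hours, where the groups overlapped, to 0.33 at 7 days, where they did not. In both genes the DMSO means lay further apart between the times than the sorafenib means.

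Within a group, 1 library lay far from the others. Cdkn2b in sorafenib for 7 days replicate 1 had 792 normalized counts, against 889 to 906 in the other 3, a gap of 0.851 of the group's range, past Dixon's 95% limit for 4 samples. Of 24 groups tested 1 was past this limit, and chance alone puts about 1 in 20 there. Leaving out this library changed no call of Cdkn2b.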

How the results depend on the processing

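Called members kept their call and direction in 100 of 100 alternatives at 48 hours, 149 of 150 at 7 days, 48 of 48 for the difference between the responses, 95 of 100 for DMSO over time and 58 of 75 for sorafenib over time. No called member reversed in any of these alternatives. The exception at 7 days was Cdkn1b with total counts only (FDR = 0.0547). With only the 8 libraries compared, 1 member was called for sorafenib over time in place of 3. Leaving out each library in turn left 4 members called at 48 hours and 6 at 7 days, 2 to 3 for the difference, 3 to 5 for DMSO over time and 2 to 4 for sorafenib over time. The cause of these moves was not tested.

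The changes that reversed were not called. Cdkn1b at 48 hours was 0.032 without the filter. For the difference between the responses, Cdkn2a was 0.041 with total counts only and 0.013 with at least 10 counts in every sample. Over time, Cdkn1a in DMSO ranged from -0.10 to 0.13 without each library in turn. Cdkn2c in sorafenib was -0.00083 without the filter and ranged from -0.039 to 0.036 without each library, and Cdkn2d in sorafenib ranged from -0.097 to 0.045. Cdkn2d was 0.011 with DESeq2 and with DESeq2 size factors, 0.014 with total counts only, 0.031 with at least 10 counts in every sample and 0.018 with the 8 libraries alone. In the lists, 598 of 600 counts stayed within 1.5 times. The exceptions were the rises at 48 hours among p27 and p21 turnover genes (4 with the offset, against 2) and Polycomb genes (2 without the filter, against 1).

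Per kilobase of the canonical transcript, Cdkn1a stood at 19.7, 70.2, 19.5 and 93.6 normalized counts in DMSO and sorafenib at 48 hours and DMSO and sorafenib at 7 days, Cdkn2a at 8794, 10022, 8406 and 9235, and Cdkn2c at 224, 182, 250 and 181. Cdkn2d stood at 231 with DMSO for 48 hours and 175 with DMSO for 7 days. With total counts only, Cdkn1b and Cdkn2c with DMSO for 48 hours stood at 461 and 97.6, and Cdkn2a with sorafenib for 48 hours at 7139.

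Replicate numbers did not pair the samples: over 10646 genes, 24 same-numbered pairs correlated between -0.18 and 0.13, 2 of them over 0.1. Pairs with different numbers reached 0.38 (DMSO for 48 hours replicate 2 with DMSO for 7 days replicate 4). The lowest value was -0.34 (DMSO for 48 hours replicate 1 with the same library). Links between libraries under other numbers were not tested. With the replicate number as a block, 4, 6, 2, 4 and 2 members were called in the 5 comparisons, Cdkn1a for sorafenib over time missed the threshold (0.39, FDR = 0.0603), Cdkn2c there was -0.00083, and no other call changed. Depth limits Cdkn1a most, at 29 to 56 counts in DMSO libraries.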
